A study of Bos taurus with 16 samples.

Results

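Blood RNA from dairy cows given an oral probiotic for 60 days was compared with blood RNA from cows given only water over the same 60 days. The comparison rests on the 8 of the 16 arrays of the series that were labelled as day 60 probiotic or day 60 untreated, 4 arrays per group. Per the labels, all animals were lactating Holstein Friesian females. Of 10 cows enrolled, 5 took the FASTtrak microbial pack and 5 were controls. The pack holds a Saccharomyces cerevisiae culture and dried fermentation products of Enterococcus faecium, Lactobacillus acidophilus, Aspergillus oryzae and Bacillus subtilis. Ages are not given in the sources used here. Jugular blood of both groups stood for 30 min in 5% CO2 at 37 °C, and no endotoxin was added to either. The RNA of a group's cows was pooled before 0.5 µg of it, with an integrity number above 7, was labelled with Cy3. The 4 arrays of a group are therefore repeat hybridisations of 1 pool. The p-values below measure at most the spread between arrays, and not that between cows. Each pool lay on a slide of its own, and the pools compared here were scanned on different days, so pool, slide and scan day cannot be told apart.

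Whole blood RNA comes mainly from white cells, platelets and the youngest red cells, and the extraction kit used here lysed red and white cells differentially. Neutrophils carry S100 proteins, chemokine receptors and the oxidase that makes reactive oxygen, monocytes sense bacterial products through CD14 and Toll-like receptors, and lymphocytes are marked by the chains of their antigen receptors. Genes for ribosomes, mitochondrial ATP synthesis and the actin skeleton are active in nearly every nucleated blood cell, while genes for milk proteins, keratins or neuropeptides belong to other tissues.

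The probes were 60 bases long, and several genes had probes at different places on the array. The first 30 bases of 8 probes are shown because the values below turn on them, 5′ to 3′, with G and C in capitals. S100A12, a calcium-binding protein abundant in neutrophils, had 3 probes, CD3E, a chain of the T cell receptor complex, had 2, and RPLP2, an acidic protein of the ribosomal stalk, had 5. The others shown belong to BOLA-DQA5, an MHC class II chain, and NRAP, a muscle actin-anchoring protein. The G and C content used below is that of all 60 bases, which the part shown need not match. In the part shown, the S100A12 probe in row 79 is richer in G and C than that in row 203. Over all 60 bases, the probe in row 79 is the poorer of both.
S100A12, row 79: CCtGaGGCtGCCttaCCCGaGGGaaGaGaG
S100A12, row 129: tGaCaaaatattCCaaGaCCtGGatGCCGa
S100A12, row 203: aatGtCCCCaaGaaGaCttaCCCttCtCCt
CD3E, row 472: CtCCatGaatGtGCtaaattCCttGtCaGC
CD3E, row 174: CCatCtCtGGaaaCaCtGttGaGCtGaCat
BOLA-DQA5, row 495: aattCtCCaatGGCCtttaGCtaatGtatC
RPLP2, row 383: tCaGatGatGaCatGGGCttCGGCttGttt
NRAP, row 389: CttCaGtCGGaGCCaGCtGtGaaaaCGGCG

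The 2 slides differed in how much of the array carried signal. On probiotic arrays 1 to 4, the scanner software called 37.1%, 32.6%, 35.4% and 26.4% of spots well above background. On untreated arrays 1 to 4 it called 12%, 17.7%, 17.9% and 13.1%, so the groups did not overlap. The brightest of the array maker's spike-in controls had a median signal of 57883, 45859 and 59872 scanner units on probiotic arrays 1 to 3 and of 89.6 on array 4, against 8.51 to 19.1 on the untreated arrays. Signal also followed position, here given for 3 parts of the array that were set after the data were seen. In the outer rows (rows 1 to 84 and 449 to 532 of 532), 48.1% to 54.6% of the probes were above background on the probiotic arrays and 13.1% to 18.5% on the untreated arrays. In the middle rows (225 to 336) the values were 41.2%, 36.1% and 40.8% on probiotic arrays 1 to 3 and 16.5% on array 4, which lay inside the untreated range of 10.4% to 17.1%. In the rows between these, the ranges were 16.9% to 24.0% and 11.4% to 20.7%, and they overlapped.

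Blood genes stood apart from genes of other tissues on the probiotic arrays in the outer rows. A set of 323 genes active in most cells (ribosome, respiratory chain, proteasome, translation factors, splicing, actin and MHC class I) was ranked among the probes of the same band of rows. In the outer rows, its 301 probes had a median percentile of 93.5, 93.3, 93.6 and 91.4 on probiotic arrays 1 to 4 and of 62.6, 69.7, 62.5 and 61.5 on untreated arrays 1 to 4. The 26 outer probes of 21 genes of other tissues had medians of 21.5, 22.9, 21.4 and 21.2 on the probiotic arrays and of 38.3, 59.1, 47.7 and 41.1 on the untreated arrays. The gap between both sets was thus wide on all 4 probiotic arrays and narrow on the untreated arrays.

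In the middle rows, the active set had medians of 94.2, 94.1 and 94.1 on probiotic arrays 1 to 3 and of 71.1 on probiotic array 4, against 69.6 to 70.8 on the untreated arrays. Probiotic array 4 therefore lay with the untreated arrays there. In the rows between, the medians ran from 63.3 to 64.9 in the probiotic group and from 59.5 to 72.3 in the untreated group, and the groups overlapped. Defining blood genes (PTPRC, B2M, globins, S100 genes, CD74 and others) had outer-row medians of 96.8 to 98.5 on the probiotic arrays and of 82.5 to 86.4 on the untreated arrays, over 13 probes. In the middle rows their 9 probes had medians of 98.8, 98.6, 98.9 and 70.8 on the probiotic arrays and of 42.8, 68.7, 66.6 and 52.2 on the untreated arrays. Over all 50 probes, the medians of rank within the array ran from 60.4 to 88.1 and from 60.1 to 80.2, so markers of the labelled tissue did not stand high in every part of the arrays.

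Probes of the same gene followed each other in the same places. Across 1958 genes with a pair of probes in the outer rows, the Spearman correlation between both probes was 0.477, 0.456, 0.458 and 0.394 on probiotic arrays 1 to 4 and 0.102, 0.101, 0.089 and 0.053 on untreated arrays 1 to 4. Across 3930 genes with a pair of probes in the rows between, it was 0.053 to 0.088 on the probiotic arrays and 0.007 to 0.100 on the untreated arrays. These are correlations across genes within 1 array, and the probes share the array's background. Between arrays, the outer rows of probiotic arrays 1 to 3 correlated at 0.978 to 0.982 and those of the untreated arrays at 0.283 to 0.595. In the middle rows, probiotic array 4 correlated at 0.391 to 0.402 with probiotic arrays 1 to 3 and at 0.508 to 0.682 with the untreated arrays. Signal also followed the G and C content of the probe more closely on the untreated arrays, with a Spearman correlation of 0.145 to 0.278, against 0.0503 to 0.109 on the probiotic arrays. The part of place, slide and base content in the differences below was not tested, and each gene is therefore given with the place of its probe.

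The comparison of the probiotic with the untreated pool asks how blood expression differed after the supplement. A gene was tested where a probe was well above background on all 4 arrays of at least 1 group, which left 8661 of 25114 genes. Of these, 6503 were kept through the probiotic arrays alone and 501 through the untreated arrays alone. A gene kept through 1 group alone was chosen by its signal in that group, which favours a difference without forcing one. The counts over tested genes therefore do not describe all genes. Differences are log2 values of the background-subtracted signal relative to each array's 75th percentile, given as probiotic minus untreated ± standard error. In this fit, a signal below the software's substitute for dim spots was replaced by that substitute. For a probe dim on all 4 arrays of a pool, the standard error and p-value can reflect the substitute more than the spread between arrays. The percentiles given with the genes were taken without it. A second fit used each probe's rank within its array, which needs no scaling, also without the substitute. A gene was called in the first fit at a limma adjusted p under 0.05 with at least a 2-fold difference, and in the second at an adjusted p under 0.05.

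By the scaled signal, 4654 genes were higher in the probiotic pool (53.7% of the genes tested) and 1521 were lower (17.6%). By rank, 4015 were higher (46.4%) and 1814 lower (20.9%). Both fits called 3815 genes higher (44.0%) and 1462 lower (16.9%). The percentile ranges of the groups did not overlap for 3931 genes higher (45.4%) and 1779 lower (20.5%). Of the 3815, 3001 were dim on all 4 untreated arrays. Of the 1462, 133 were dim on all 4 probiotic arrays. The median difference of all tested genes was 1.66, and over 9 ways of scaling it ran from -0.01 (cyclic loess) to 3.56 (array median). The share of calls that were higher ran from 43.2% to 93.8% over the same scalings, and was 75.4% as reported. The balance of higher and lower genes therefore moved with the scaling. The same call under all 14 scalings and rankings, here named a stable call, was made for 1431 genes higher in the probiotic pool (16.5%) and 177 lower (2.04%). This criterion was chosen after the data were seen.

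Among the 1657 genes above background on all 8 arrays, the balance was the other way, with 126 called higher in both fits (7.6%) and 801 lower (48.3%). Stable calls there were 48 higher (2.9%) and 64 lower (3.86%). The lowest scaled log2 signal that passed the background test was 0.80 to 1.48 on the untreated arrays and -1.66 to -0.22 on the probiotic arrays. This filter thus asked a higher scaled signal of the untreated arrays, and its part in the balance was not tested. The direction also went with the place of the probe. In the outer rows, 58.1% of 4862 tested genes were higher in both fits and 5.53% lower. In the rows between, 28.7% of 2779 were higher and 778 genes lower, and in the middle rows 18.8% of 1020 were higher and 40.7% lower. Probes with under 35% G and C were higher in 75.3% of 89 genes and lower in 3.37%, and probes with over 55% were higher in 20.0% of 1686 genes and lower in 30.8%.

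**Figure D1:**
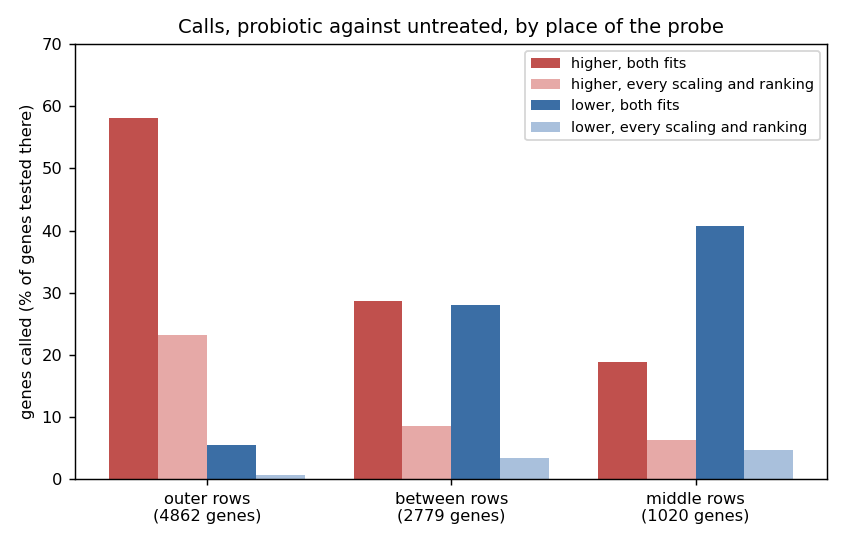
Share of tested genes (%) called higher or lower in the probiotic pool in both fits, and under every scaling and ranking, by the place of the probe on the array. Genes higher in both fits make up 58.1% in the outer rows and 18.8% in the middle rows, and genes lower in both fits 5.53% and 40.7%.

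Ribosomal genes were called higher more often than lower among the genes tested, and the order of the pools went with the place of the probe. Of 40 tested proteins of the large ribosomal subunit, 24 were called higher in both fits and 3 lower, with a median difference of 6.41 against 1.66 over all genes tested. Of 30 of the small subunit, 16 were higher and none was lower in both fits, with a median of 4.94. Of all tested genes, 44.0% were higher and 16.9% lower in both fits, and the counts of every list here and below stand against these shares. For stable calls the shares were 16.5% and 2.04%. In the outer rows, the large subunit's 50 probes had median percentiles of 99.4, 99.4, 99.3 and 99.3 on probiotic arrays 1 to 4 and of 87.3, 87.5, 86.2 and 86.7 on untreated arrays 1 to 4. The groups did not overlap there. In the rows between, the order was the other way, with mean medians of 66.9 ± 2.58 against 76.3 ± 8.63 for the large subunit (SD, n = 4 arrays) and of 66.3 ± 3.41 against 81.2 ± 5.83 for the small. Ranked within the whole array over all 181 probes, the large subunit's medians were 73.9 to 92.3 on the probiotic arrays and 81.0 to 84.2 on the untreated arrays, and the small subunit's 119 probes had 74.4 to 97.9 and 81.7 to 87.5. The groups overlapped over all probes.

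RPL10, a large subunit protein, lay at the 99.8th percentile on all 4 probiotic arrays and at 83.2, 78.3, 80.7 and 81.6 on the untreated arrays by its probe in row 21. Where all 4 arrays of a pool left a probe short of the software's background test, only a lower limit of the difference is given. For it, the signal of each dim array was raised, where it lay lower, to the lowest signal that passed the test on that array, and the mean over these was set under the mean of the bright pool. RPL10 was at least 355-fold higher by this measure (limma adjusted p = 8.84e-07). Such bounds hold for 1 probe and under the 75th percentile scaling. On the untreated arrays that percentile lay in dim signal. Of the other probes of RPL10, the one in row 194 was above background on all 8 arrays and gave a difference of -0.70.

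RPL30, also of the large subunit, lay at 99.3, 99.3, 99.4 and 99.1 on the probiotic arrays and at 21.3, 46.2, 47.6 and 9.68 on the untreated arrays. Its bound was 83.0-fold (adjusted p = 8.84e-07). RPL9 stood at 99.6 to 99.7 on the probiotic arrays and at 4.09 to 85.3 on the untreated arrays, where untreated array 4 was the lowest. Its probe lay in row 96, in the rows between. RPS26 and RPSA of the small subunit were stable calls too, at least 193-fold higher and higher by 9.17 ± 0.50 (adjusted p = 8.84e-07 for both). The RPS26 probe lay in the middle rows and the RPSA probe in row 481. Ribosomal protein genes have many processed copies in mammalian genomes, so their probes may read more than 1 locus.

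RPLP2 and RPL14 went the other way. RPLP2 in row 383 lay at 47.2, 51.5, 51.0 and 50.9 on probiotic arrays 1 to 4 and at 99.98, 99.95, 99.7 and 99.9 on untreated arrays 1 to 4. It was at least 381-fold lower in the probiotic pool (adjusted p = 8.84e-07). A second probe of RPLP2, in row 406, lay at 26.1 to 37.9 on the probiotic arrays and at 99.3 or above on the untreated arrays. The probe in row 195 lay at 77.4 to 84.9 and at 87.9 to 93.5. RPL14 in row 407 lay at 42.2 to 57.6 on the probiotic arrays and at 97.4 to 99.9 on the untreated arrays, a bound of 109-fold lower (adjusted p = 5.37e-06). Its other probe, in row 274, lay at 98.7, 98.6, 98.9 and 58.4 on the probiotic arrays and at 93.0, 79.8, 79.3 and 82.7 on the untreated arrays. That probe was above the untreated arrays on probiotic arrays 1 to 3 and below them on array 4.

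Translation factors had 22 of 31 tested genes higher and 2 lower in both fits (median difference 4.87). EIF1, which helps the ribosome choose the start codon, lay at 99.4, 99.4, 99.4 and 99.5 against 31.3, 65.9, 52.9 and 44.4, and was at least 113-fold higher (adjusted p = 8.84e-07). Another EIF1 probe, in row 340, was above background on all 8 arrays with a difference of -2.69. EEF1G, a subunit of the elongation factor that reloads tRNA carriers, was higher by 8.67 ± 0.58 (adjusted p = 1.06e-06). EIF3K, a subunit of the initiation complex that binds the small ribosome, lay at 27.0 to 44.3 on the probiotic arrays and at 98.2 to 99.7 on the untreated arrays. Its bound was 72.5-fold lower (adjusted p = 8.84e-07), by a probe in row 193.

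Mitochondrial ribosome genes had 24 of 41 higher and 1 lower in both fits, with a median of 3.26. MRPS15, of the small mitochondrial subunit, lay at 98.3 to 98.9 on the probiotic arrays and at 60.9, 66.9, 62.2 and 8.60 on the untreated arrays, a bound of 34.8-fold. Splicing genes had 21 of 31 higher and 1 lower, with a median of 4.57. SF3B1, a core protein of the spliceosome, was at least 33.7-fold higher, and 6 of its 8 probes had a higher mean in the probiotic pool. Here and below, such counts of a gene's probes compare mean percentiles within blocks of 28 rows by 17 columns, and not mean signal.

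Of 51 tested genes of mitochondrial ATP synthesis, 50 passed the background test on each of the probiotic arrays and 12 did so on each of the untreated arrays. Passing it in at least 1 group was the condition for being tested. Of all 8661 tested genes, 6503 passed through the probiotic arrays alone, 501 through the untreated arrays alone and 1657 on all 8. Among the 51, 32 were higher and 2 lower in both fits, with a median difference of 4.19. Of the 32, 22 were stable calls, against 16.5% of all tested genes called stably higher. In the outer rows, their 54 probes had medians of 90.4, 89.9, 90.0 and 88.7 on the probiotic arrays and of 50.4, 51.5, 52.0 and 54.9 on the untreated arrays. Their medians in the rows between were 57.6 to 65.2 and 51.0 to 62.9 and overlapped. ATP5F1B, a catalytic subunit of ATP synthase, lay at 99.6, 99.6, 99.6 and 99.7 against 80.4, 72.7, 75.7 and 49.3, with a bound of 202-fold (adjusted p = 8.84e-07).

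ATP5F1A, its partner subunit, had 6 probes, and all 6 had a higher mean in the probiotic pool. The probe that stood for the gene, in row 47, lay at 99.2 to 99.5 against 55.7 to 76.0, a bound of 85.1-fold. COX4I1, a subunit of cytochrome c oxidase, was higher by 8.14 ± 1.31 (adjusted p = 0.000273). It lay at 64.8, 57.2 and 49.4 on untreated arrays 1 to 3 and at 98.9 on array 4, just under the lowest probiotic value of 99.5. COX6B2, the testis form of another subunit of that enzyme, was lower, with a difference of -8.26 ± 0.89 (adjusted p = 1.6e-05), by a probe in the rows between.

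Of 28 tested proteasome genes, which break down tagged proteins, 13 were higher in both fits, a share near the 44.0% of all tested genes, and 3 were lower. PSME2, part of the activator cap used in antigen processing, was at least 73.5-fold higher (adjusted p = 1.1e-06). PSMD6, a subunit of the regulatory lid, lay at 21.1, 24.5, 22.2 and 68.6 on the probiotic arrays and at 96.9, 99.1, 96.0 and 94.6 on the untreated arrays, a bound of 30.9-fold lower (adjusted p = 1.88e-05). PSMG4, a chaperone of proteasome assembly, was at least 80.5-fold higher. In the endoplasmic reticulum list 13 of 24 were higher and none was lower, and CALR, a calcium-binding chaperone of glycoprotein folding, was at least 64.5-fold higher. Heat shock genes had 11 of 21 higher and 1 lower, and lysosome genes 12 of 22 and 1. The shares of all tested genes were 44.0% higher and 16.9% lower.

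Metabolic genes outside the mitochondrion gave single strong differences. TKT, transketolase of the pentose phosphate pathway, lay at 99.6, 99.6, 99.6 and 99.7 on the probiotic arrays and at 54.7, 61.4, 69.4 and 80.3 on the untreated arrays. Its bound was 199-fold higher (adjusted p = 8.84e-07). Only 1 of its 2 probes had a higher mean in the probiotic pool. Of 13 glycolysis genes, 6 were higher in both fits, a share near the 44.0% of all tested genes, and 1 was lower. GAPDH, often used as a reference gene, was higher by 3.65 ± 0.95 by signal (adjusted p = 0.00563) but not by rank (adjusted p = 0.295), with percentiles of 98.8 to 99.5 against 85.1 to 99.9. By signal it no longer passed with the 95th percentile (2.45, adjusted p = 0.0593), quantile normalization (1.55, adjusted p = 0.316), cyclic loess (0.80, adjusted p = 0.477) or scaling within bands of rows (2.62, adjusted p = 0.0514). By rank it passed without untreated array 3 (rank score 0.78, adjusted p = 0.03) and with ranks within blocks adjusted for G and C content (1.08, adjusted p = 0.0399). FTH1, the ferritin heavy chain, was higher by 7.37 ± 0.59 (adjusted p = 2.15e-06). It lay at 4.73 and 5.56 on untreated arrays 1 and 4 and at 84.6 and 80.9 on arrays 2 and 3.

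The actin skeleton, which drives white cell crawling and engulfment, had 18 of 28 tested genes higher and 3 lower in both fits (median 5.30). TMSB10, a peptide that binds actin monomers, was above background on all 8 arrays. It lay at 99.99 on all 4 probiotic arrays and at 95.5, 96.9, 95.6 and 96.6 on the untreated arrays. The difference was 7.78 ± 0.47 (adjusted p = 8.84e-07), and all 4 of its probes had a higher mean in the probiotic pool. ARPC2, of the complex that branches actin filaments, was at least 140-fold higher (adjusted p = 1.06e-06), with 4 of 5 probes higher. RHOA, a switch protein that controls actin contraction, was at least 50.1-fold higher by its probe in row 496.

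LCP1, an actin-bundling protein of white cells, was lower. It lay at 75.8, 56.7, 54.8 and 56.3 on the probiotic arrays and at 99.5, 99.8, 99.5 and 99.2 on the untreated arrays, a difference of -7.55 ± 0.71 (adjusted p = 6.12e-06). ACTB, the common cytoplasmic actin, was not called under the 75th percentile scaling. It lay at 97.0, 96.4, 92.3 and 91.6 against 87.0, 98.0, 94.0 and 1.54, and the groups overlapped. The difference was 2.21 ± 0.99 (adjusted p = 0.0669), and it turned to -0.83 with cyclic loess. It passed with the array median (4.12, adjusted p = 0.0139), with scaling within bands of rows (5.31, adjusted p = 0.0006), with normexp background correction (2.20, adjusted p = 0.0156) and with the median of probes above background on all arrays (3.12, adjusted p = 0.024). It also passed with the replicate number as a block (2.21, adjusted p = 0.0345) and without untreated array 2 (3.06, adjusted p = 0.00695).

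**Figure D2:**
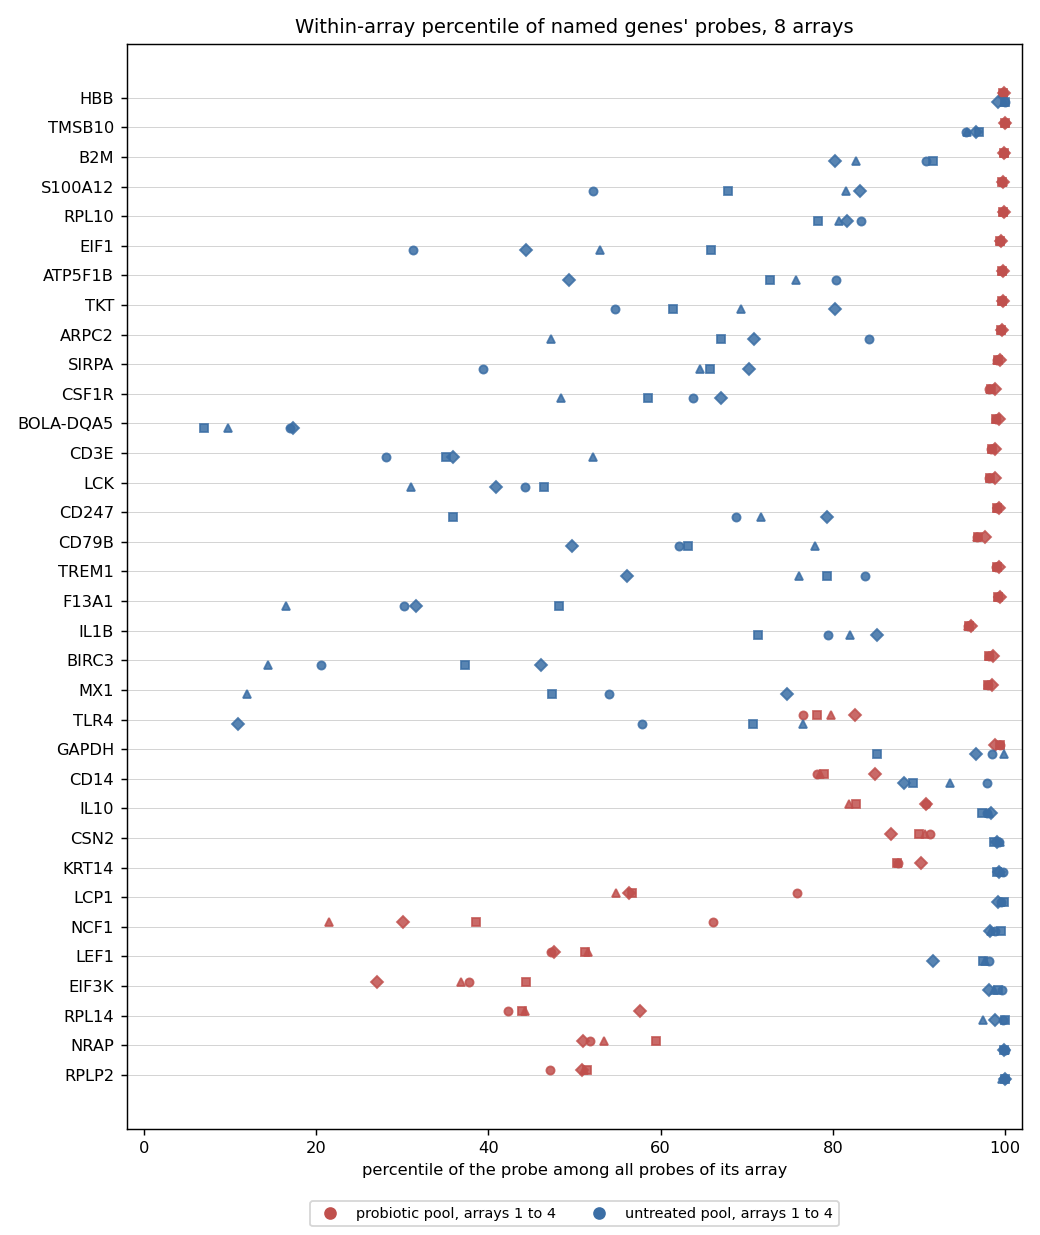
Percentile of each named gene's probe among all probes of its array, for the 4 arrays of each pool. S100A12 lies at 99.7 to 99.8 on the probiotic arrays and at 52.1 to 83.1 on the untreated arrays, and NRAP at 51.0 to 59.5 and at 99.92 to 99.96.

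Neutrophil genes were called in both directions. Of 15 tested, 11 were higher in the probiotic pool in both fits and 3 lower. Stable calls were 6 higher and 1 lower, against 16.5% and 2.04% of all tested genes. In pooled blood, fewer cells of a type and less RNA per cell cannot be told apart. Their 16 outer-row probes had medians of 72.0, 70.7, 70.8 and 65.4 on the probiotic arrays and of 53.2, 57.5, 53.9 and 37.9 on the untreated arrays. Their 32 probes in the rows between had mean medians of 43.4 ± 4.95 and 49.3 ± 3.01 (SD, n = 4 arrays). Over all 58 probes the medians of rank within the array ran from 42.8 to 58.5 and from 46.3 to 54.3, and the groups overlapped.

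S100A12 in row 79 lay at 99.7, 99.7, 99.7 and 99.8 on the probiotic arrays and at 52.1, 67.8, 81.5 and 83.1 on the untreated arrays, where it was not well above background on any. The bound was 247-fold higher (adjusted p = 8.84e-07). The probe in row 129 lay at 15.7 to 31.9 on the probiotic arrays and at 57.0, 65.9, 99.8 and 28.4 on the untreated arrays. The probe in row 203, above background on all 8 arrays, lay at 82.8, 83.2, 83.5 and 88.0 against 97.1, 95.5, 96.1 and 97.8, a difference of -1.96. The 3 probes shown above thus disagreed in direction, and the one with the large rise was the only one in the outer rows.

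The partners of S100A12 were not tested. The S100A8 probe lay at 98.8, 98.6, 98.8 and 17.5 on probiotic arrays 1 to 4 and at 34.3 to 59.7 on the untreated arrays, by a probe in row 257 of the middle rows. One S100A9 probe, in row 298, lay at 97.5, 97.5, 97.8 and 47.1 against 38.2, 58.3, 62.1 and 42.2. Probiotic array 4 lay among or below the untreated arrays for both genes.

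CXCR1 and CXCR2 are the receptors through which neutrophils follow chemokines. CXCR1 lay at 95.7, 96.1, 95.9 and 97.3 against 34.9, 34.2, 53.7 and 44.4, a bound of 12.6-fold higher (adjusted p = 1.3e-06). CXCR2 lay at 83.2, 84.1, 85.5 and 87.7 against 28.9, 56.2, 27.03 and 63.7. Its bound was 1.57-fold (adjusted p = 3.31e-05), and its difference turned to -0.14 when each band of rows was scaled by itself. CSF3R, the receptor for granulocyte colony-stimulating factor, was higher by 5.10 ± 0.71 (adjusted p = 9.92e-05), although untreated array 4 lay at 97.1 and the others at 81.3 to 85.6. TREM1, an amplifying receptor of neutrophils and monocytes, was at least 62.7-fold higher by its only probe, in row 117. FCGR3A, an Fc receptor, was at least 4.70-fold higher, and all 3 of its probes had a higher mean in the probiotic pool.

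NCF1, a cytosolic subunit of the neutrophil oxidase, was lower. Its only probe, in row 155, lay at 66.1, 38.5, 21.5 and 30.1 on the probiotic arrays and at 98.9, 99.6, 98.4 and 98.3 on the untreated arrays. The difference was -7.66 ± 0.64 (adjusted p = 2.79e-06). The only tested gene of the eosinophil and basophil list, ALOX15, a lipoxygenase of eosinophils, was higher by 7.00 ± 0.60 (adjusted p = 3.43e-06).

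Of 8 monocyte genes, 5 were higher and 1 lower in both fits. CSF1R, the receptor on which monocyte survival depends, lay at 98.1, 98.3, 98.2 and 98.8 against 63.8, 58.5, 48.4 and 67.0, a bound of 31.3-fold (adjusted p = 8.84e-07), and all 3 of its probes had a higher mean in the probiotic pool. SIRPA, the receptor for the CD47 signal against engulfment, was at least 71.3-fold higher. CTSS, a protease that trims antigens, was higher by 7.12 ± 0.54 (adjusted p = 1.72e-06). CD14, the coreceptor for endotoxin, was lower. It lay at 78.2, 79.0, 78.5 and 84.9 on the probiotic arrays and at 97.9, 89.3, 93.7 and 88.2 on the untreated arrays, without overlap. Its difference was -1.66 ± 0.54 (adjusted p = 0.0185), and it turned to 0.25 under scaling by the array median. Without probiotic array 1, 2 or 3 it no longer passed, with -1.53, -1.59 and -1.56.

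Antigen presentation genes were higher more often than not. In the class I list, 10 of 13 tested were higher and none was lower in both fits. In the class II list, 11 of 16 were higher and 2 lower. Their outer-row medians were 96.0 to 97.6 and 94.9 to 95.7 on the probiotic arrays, against 55.1 to 71.8 and 74.0 to 77.6 on the untreated arrays. Class I medians in the rows between were 55.4 to 59.1 against 53.5 to 68.5 and class II medians 63.3 to 69.3 against 56.1 to 79.5, with overlap in both lists. BOLA-DQA5, in row 495, lay at 98.96, 99, 98.95 and 99.30 against 16.98, 7.02, 9.81 and 17.36. It was at least 61.1-fold higher (adjusted p = 8.84e-07), and both of its probes had a higher mean in the probiotic pool. The authors' deposited table of group averages gave a difference of -0.16 for this probe.

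BOLA-DQB1, the partner chain, was above background on all 8 arrays and higher by 7.19 ± 0.45 (adjusted p = 9.44e-07), at 99.7 to 99.8 against 89.3 to 91.4. Only 1 of its 3 probes had a higher mean in the probiotic pool, and class II genes are variable between animals, so a probe may not match every allele. B2M, the light chain of class I molecules, was higher by 8.46 ± 0.55 (adjusted p = 1e-06), at 99.8, 99.9, 99.9 and 99.9 against 90.8, 91.6, 82.7 and 80.2. For B2M, 2 of 5 probes had a higher mean in the probiotic pool.

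T cell genes had 10 of 17 higher and 2 lower in both fits, with a median difference of 2.03. CD3E in row 472 lay at 98.4, 98.5, 98.5 and 98.9 against 28.1, 35.05, 52.2 and 35.8, a bound of 36.1-fold higher (adjusted p = 8.84e-07). Its other probe, in row 174, lay at 27.8, 29.3, 16.9 and 24.7 against 39.3, 52.0, 18.8 and 95.9, so the large difference was seen by the outer probe alone. CD247, the zeta chain of the receptor complex, was at least 66.4-fold higher, and both of its probes had a higher mean in the probiotic pool. LCK, the kinase that starts T cell receptor signalling, was at least 31.3-fold higher, with 4 of 5 probes higher.

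LEF1, a transcription factor of naive T cells and of Wnt signalling, was lower. It lay at 47.2, 51.2, 51.6 and 47.6 in row 153 on the probiotic arrays and at 98.1, 97.5, 97.6 and 91.7 on the untreated arrays, a bound of 26.9-fold lower (adjusted p = 1.12e-06). The other LEF1 probe, in row 228, was above background on 3 probiotic arrays and lay at 86.7, 86.1, 87.1 and 60.5 against 48.0, 79.3, 81.0 and 80.1.

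B cell genes had 8 of 11 higher and 2 lower in both fits. CD79B, a signalling chain of the B cell receptor, was at least 15.7-fold higher (adjusted p = 2.34e-06), by a probe in the middle rows. TNFRSF13C, the receptor for the survival factor BAFF, was at least 14.6-fold higher. CD79A, the partner of CD79B, was above background on all 8 arrays, at 99.2, 99.1, 99.1 and 99.4 against 98.5, 98.2, 98.0 and 98.6. The difference was 3.00 ± 0.44 (adjusted p = 0.000152), and by rank score it turned to -0.15 when ranks were taken within blocks of rows and columns.

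Of 7 natural killer and cytotoxic genes, 2 were higher and none was lower in both fits. GNLY, a pore-forming peptide of cytotoxic granules, was at least 41.9-fold higher (adjusted p = 9.49e-07). NKG7, a granule membrane protein, lay at 95.8, 96.0, 96.0 and 97.0 against 97.9, 90.3, 97.2 and 88.5. The groups overlapped, its rank did not differ past the threshold (adjusted p = 0.457), and its difference of 1.93 ± 0.59 turned to -1.11 with cyclic loess. PTPRC, the CD45 antigen of all white cells, lay at 97.8 to 98.6 against 85.8, 78.4, 99.8 and 4.92 and was not called by rank (adjusted p = 0.18). Without untreated array 3 it was called higher by rank (rank score 2.04, adjusted p = 0.0221).

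Red cell and platelet genes did not move together. HBB, the adult beta globin, lay at 99.76, 99.76, 99.76 and 99.83 on the probiotic arrays and at 99.95, 99.98, 99.84 and 99.13 on the untreated arrays. The groups overlapped, the rank fit did not call it (adjusted p = 0.489), and the log2 difference of 2.48 ± 0.77 turned to -0.40 with quantile normalization. Without untreated array 4 the rank fit called it lower (rank score -0.41, adjusted p = 0.0309). HBG, a fetal-type globin in the array's naming, was higher by 8.01 ± 0.46 (adjusted p = 8.84e-07), at 99.9 on each probiotic array against 94.4, 91.1, 89.4 and 88.3. Globin genes are near copies of each other, so probes may share transcripts.

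KLF1, a transcription factor of red cell precursors, was higher by 1.22 ± 0.34 (adjusted p = 0.00851). Without probiotic array 4 it was 0.96 and no longer passed, and it turned to -1.89 when each band of rows was scaled by itself. Of 6 platelet genes, 3 were higher and 1 lower, against 44.0% and 16.9% of all tested genes. F13A1, a chain of clotting factor XIII found in platelets and monocytes, lay at 99.1, 99.2, 99.2 and 99.4 against 30.2, 48.2, 16.5 and 31.5. It was at least 77.1-fold higher (adjusted p = 8.84e-07), and all 5 of its probes had a higher mean in the probiotic pool. NRGN, a calmodulin-binding protein of neurons and platelets, was lower by a probe in the middle rows. It lay at 67.9, 67.8, 69.5 and 86.5 on the probiotic arrays and at 98.7, 96.7, 96.7 and 97.5 on the untreated arrays.

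**Figure D3:**
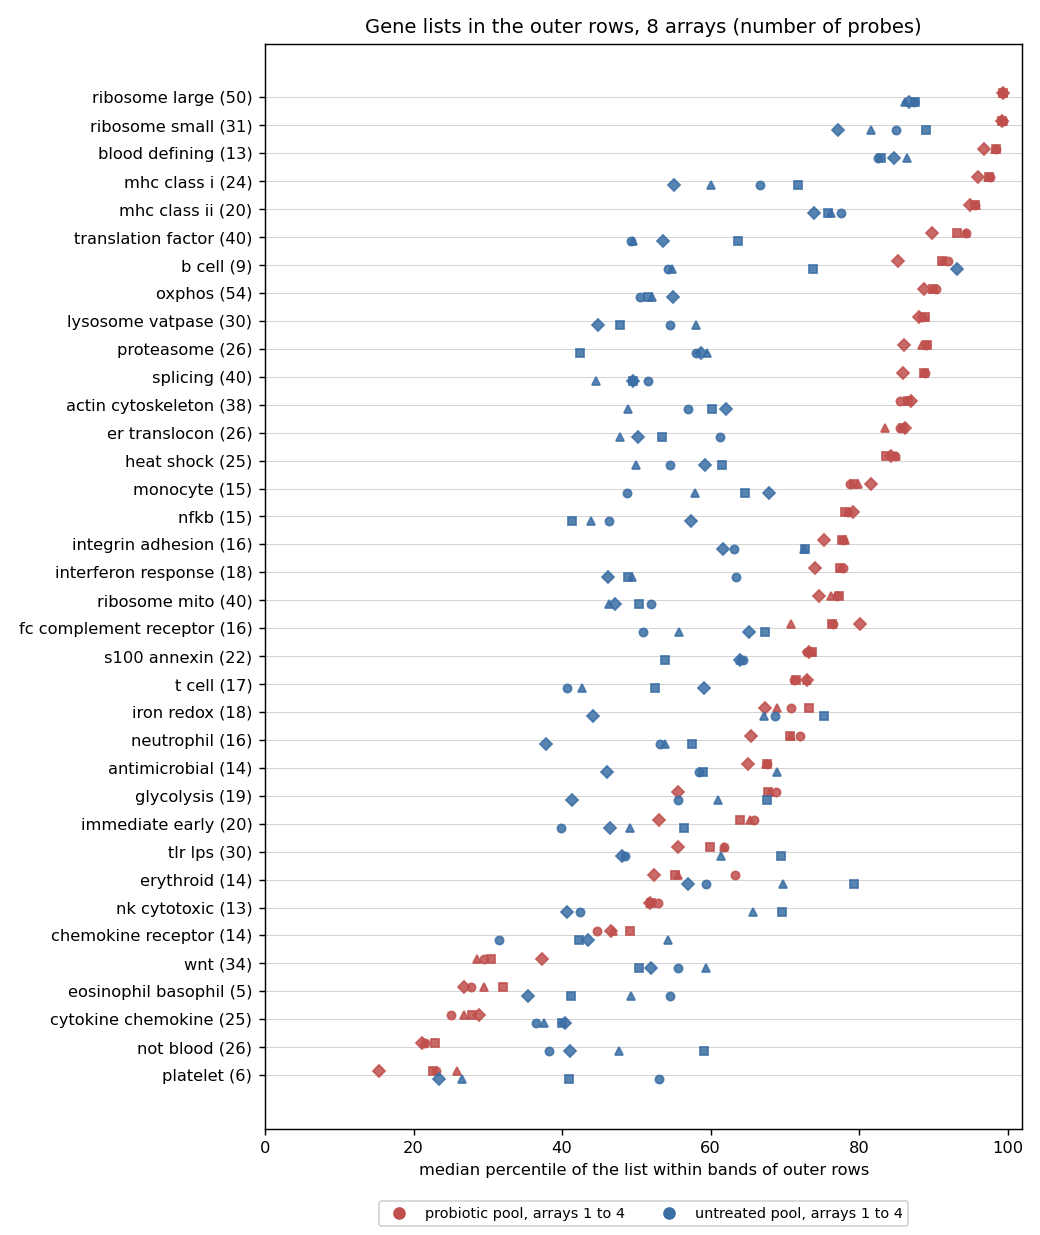
Median percentile of each gene list within bands of the outer rows, for the 4 arrays of each pool, with the number of probes per list. The large ribosomal subunit lies at 99.3 to 99.4 on the probiotic arrays against 86.2 to 87.5, and cytokines lie at 25.02 to 28.8 against 36.55 to 40.4.

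Of 11 tested cytokines and chemokines, the messengers of inflammation, 5 were higher and 4 lower in both fits, against 44.0% and 16.9% of all tested genes. None was a stable call, against 16.5% higher and 2.04% lower of all tested genes, and 11 genes are few for such shares. Their median difference was 1.05. Their 25 outer-row probes had medians of 25.02, 27.8, 26.8 and 28.8 on the probiotic arrays and of 36.55, 39.97, 37.6 and 40.4 on the untreated arrays. Their 16 probes in the middle rows stood the other way, at 81.8, 79.7, 79.4 and 70.5 against 45.5, 51.4, 62.0 and 61.3, so the order of the pools differed between both parts of the array. Over all 74 probes, the medians of rank within the array overlapped, at 38.9 to 45.3 and 42.5 to 44.6. IL1B, a fever-inducing cytokine, lay at 95.7, 95.8, 95.7 and 96.0 by its probe in row 30 against 79.4, 71.3, 82.0 and 85.1, a bound of 10.9-fold higher (adjusted p = 1.63e-05). Its probe in row 211 was above background on all 8 arrays and gave a difference of -1.96.

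IL10, a cytokine that restrains inflammation, was lower in the probiotic pool. It lay at 90.8, 82.6, 81.9 and 90.8 against 97.9, 97.3, 98.1 and 98.4, without overlap. The difference was -2.01 ± 0.56 (adjusted p = 0.00844), by a probe in the middle rows, and the authors' deposited table of averages gave 0.83. The signal call was lost with the array median (-0.10, adjusted p = 0.854), the median of probes above background on all arrays (-1.10, adjusted p = 0.0584) and scaling within bands of rows (-1.25, adjusted p = 0.148). GRO1, a neutrophil-attracting chemokine, was at least 2.33-fold higher (adjusted p = 1.04e-05). CXCL10, an interferon-induced chemokine, was lower, with a difference of -3.09 ± 0.45 (adjusted p = 0.000148). That call was lost with the mean of kept probes (-0.27, adjusted p = 0.519), within bands of rows by signal (-0.54, adjusted p = 0.257) and by rank (rank score -0.36, adjusted p = 0.0735), and with 1 floor for all arrays, where -0.84 was short of 2-fold. CXCL8, TNF and TLR2 had no probe above background on all 4 arrays of either group. The TNF probes lay at 57.5 or below on every array, and the CXCL8 probe of the middle rows lay at 70.4 to 81.1 against 66.0 to 88.2.

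Of 19 tested Toll-like receptor and endotoxin pathway genes, 8 were higher and 1 lower in both fits. The share of higher genes lay near the 44.0% of all tested genes. Stable higher calls were 2, against 16.5% of all tested genes, and no stable call was lower. TLR4, the endotoxin receptor, lay at 76.5, 78.1, 79.8 and 82.5 against 57.8, 70.7, 76.6 and 10.9. Its rank did not pass (adjusted p = 0.125), and its difference of 1.22 ± 0.36 turned to -0.34 with cyclic loess. It passed when ranks were taken within bands of rows (rank score 1.21, adjusted p = 0.00542), and by signal it no longer passed with the 95th percentile (0.016), normexp (0.81) or 1 floor for all arrays (0.00). TLR10 was at least 5.76-fold higher, with 3 of 4 probes higher, and IRAK1, a kinase that relays Toll-like receptor signals, was at least 24.9-fold higher by a probe in row 440.

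NF-kB genes had 7 of 14 higher and 2 lower in both fits, against 44.0% and 16.9% of all tested genes. BIRC3, an inhibitor of cell death induced by NF-kB, lay at 98.1, 98.1, 98.1 and 98.6 against 20.5, 37.2, 14.4 and 46.1. It was at least 28.7-fold higher (adjusted p = 8.84e-07), and all 4 of its probes, in the outer, between and middle rows, had a higher mean in the probiotic pool. CHUK, a kinase that releases NF-kB, was at least 12.8-fold higher by its only probe. NFKBIA, the inhibitor that holds NF-kB in the cytoplasm, was higher by 4.58 ± 0.58 (adjusted p = 4.84e-05).

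Interferon response genes had 14 of 24 higher and 4 lower. MX1, an antiviral GTPase, was at least 27.3-fold higher (adjusted p = 1.13e-06). IFITM3, a membrane protein that blocks virus entry, was above background on all 8 arrays, at 99.7, 99.7, 99.7 and 99.8 against 97.0, 91.4, 95.8 and 95.8, and was higher by 6.02 ± 0.47 (adjusted p = 1.97e-06). IFITM2, its relative, was higher by 7.13 ± 0.61 (adjusted p = 3.44e-06). These genes are near copies, so their probes may share transcripts. Immediate early genes had 9 of 17 higher and 5 lower, against 44.0% and 16.9% of all tested genes. DUSP1, a phosphatase that ends MAP kinase signals, was at least 31.0-fold higher, and KLF6, an early-response transcription factor, at least 45.4-fold higher with all 3 of its probes higher.

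Integrins and other adhesion molecules had 10 of 14 higher and 1 lower in both fits, S100 proteins and annexins 6 of 14 and 3, and antimicrobial proteins 4 of 9 and 1. Receptors for antibody and complement had 6 of 13 higher. The higher shares of the last 3 lists lie near the 44.0% of all tested genes, of which 16.9% were lower. Genes of iron storage and redox balance had 7 of 12 higher and chemokine receptors 2 of 6, and none was lower in these lists or in the antibody and complement list.

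Genes without a known place in blood were lower or not called. Of 8 tested genes of other tissues, none was higher and 5 were lower in both fits, with a median difference of -1.82. KRT14, a skin keratin, lay at 87.6, 87.4, 87.6 and 90.3 against 99.7, 99.1, 99.5 and 99.3, a difference of -3.00 ± 0.41 (adjusted p = 9.23e-05). NPY, neuropeptide Y, lay at 68.1, 81.8, 70.1 and 75.6 against 98.8, 98.8, 98.3 and 96.0. CSN2, the milk protein beta casein, was lower with a difference of -2.30 ± 0.40 (adjusted p = 0.000447), and all 5 of its probes had a lower mean in the probiotic pool. With the array median it was -0.39 and no longer passed (adjusted p = 0.414). On the untreated arrays these 3 probes, of a keratin, a neuropeptide and a milk protein, lay at percentiles of 96.0 or above.

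Of 16 tested Wnt pathway genes, 4 were higher and 4 lower, against 44.0% and 16.9% of all tested genes, with a median of -0.21. Their 34 outer-row probes lay at medians of 28.5 to 37.3 on the probiotic arrays and of 50.4 to 59.4 on the untreated arrays. The medians of the rows between overlapped, at 50.3 to 58.4 and 46.4 to 57.6. GSK3B, the kinase that marks beta-catenin for breakdown, was at least 6.46-fold higher by a probe in row 100.

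The genes lowest and highest in the probiotic pool mostly had probes in different parts of the array. All 12 of the lowest named genes had their probes in the rows between, while 10 of the 12 highest had theirs in the outer rows. The rows between held 20958 of the 43653 probes and 778 of the 1462 genes lower in both fits. Of all genes higher in both fits, 74.0% had their probes in the outer rows. After RPLP2, the lowest was NRAP, at 51.8, 59.5, 53.4 and 51.0 on the probiotic arrays and at 99.96, 99.93, 99.94 and 99.92 on the untreated arrays. It was at least 433-fold lower (adjusted p = 8.84e-07), and all 4 of its probes had a lower mean in the probiotic pool. NRAP is a gene of heart and skeletal muscle. PALM, a membrane protein of neurons and other cells, lay at 12.4 to 15.5 against 95.1 to 99.8 and was at least 91.0-fold lower. TPST2, an enzyme that adds sulfate to tyrosines, was at least 119-fold lower by its only probe, and NSF, which recycles membrane fusion proteins, at least 111-fold lower. CRTC3, a coactivator of CREB, was at least 55.2-fold lower. DBP, a clock-controlled transcription factor, was lower with a difference of -8.28 ± 0.73 (adjusted p = 4.2e-06).

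Probes of 1 gene often disagreed. Of 1831 genes with at least 2 kept probes, 222 had probes called in opposite directions. Of 2993 tested genes with at least 3 probes on the array, all probes had a higher mean percentile within their block in the probiotic pool in 610. All had a lower one in 211. Of 623 stable higher calls with at least 3 probes, all probes were higher in 189, and of 40 stable lower calls all were lower in 14. Among the genes described above, ATP5F1A, F13A1, BIRC3, TMSB10, CSF1R, KLF6, FCGR3A and IFITM3 were stable higher calls with all of their 3 or more probes higher, and NRAP was a stable lower call with all 4 lower.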

How the data were processed

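The members and the gene lists were chosen with earlier results of these data known. Each array's scanner file was deposited by the authors. Agilent Feature Extraction 10.10.1.1 made it, per the submitters' processing notes. Per the file headers, its values are background-subtracted spot intensity in scanner units, with no normalization between arrays. The authors also deposited 1 table of log2 group averages, whose centring is not given in the sources used here. Its column medians were 0.26 for the probiotic and 0.42 for the untreated group, and it was used as an alternative and for gene symbols.

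The 1417 control spots and spots marked as outliers were left out, and spots of 1 probe were averaged, which gave 43653 probes. Where the subtracted signal lay below the software's substitute for dim spots, that substitute was used. Each array's 75th percentile was subtracted on the log2 scale. Gene names came from a bovine RefSeq table through accessions (26428 probes), symbols (6857) and synonyms (143). The name of the file was kept for 1447, and 8778 had none. The probe with the highest mean over the 8 arrays stood for a gene. The 8 arrays were fitted with lmFit and eBayes (trend) of limma 3.58.1 in R 4.3.3, two-sided, with Benjamini-Hochberg adjustment over all 8661 genes, on log2 values and on normal scores of within-array ranks. The scripts were tested on simulated data. Figures were drawn with matplotlib 3.10.9 under Python 3.11.15. Values after ± are the fit's standard errors, except for mean medians of lists, where they are the SD over 4 arrays.

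Named genes are the 12 highest and 12 lowest among genes called the same way in both fits whose ranges do not overlap, up to 3 members per list with the largest called difference, and a set of immune and reference genes whatever their values; not all are described. Alternatives were other scalings, floors and filters, ranks within bands or blocks of rows or adjusted for G and C content, a replicate block, all 16 arrays in 1 fit and each array left out. The number of arrays limits the precision. The files hold no mean spot signal, so the normexp alternative used the median signal. Results for 1 gene are not reported here.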

Additional observations from a re-analysis of the deposited data

Results flagged for a closer look

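The values in this part are those of single arrays that stood apart from the other 3 of their group, by the gap to the nearest of them over the group's range (Dixon's 95% criterion). Of 196 groups of 4 examined, 19 had such an array, and chance gives about 1 in 20 groups. No cause was tested. Signals are log2 relative to the array's 75th percentile.

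Probiotic array 4 stood apart most often. It was high for PSMD6 (-0.92, the others -3.97 to -3.52), NRGN (2.18, the others -1.14 to -0.87), GRO1 (3.08, the others 2.05 to 2.21), CD14 (1.80, the others 0.50 to 0.67), NFKBIA (7.26, the others 6.21 to 6.28) and KRT14 (3.17, the others 2.14 to 2.29). For genes active in most cells it was low, with an outer-row median percentile of 91.43 and a middle-row one of 71.10, where the others lay at 94.09 to 94.16. For genes of other tissues it was high in the middle rows, at 55.07 against 20.20 to 23.62.

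Among the untreated arrays, array 2 was high for PSMD6 (5.44, the others 3.01 to 3.35), NCF1 (6.13, the others 4.30 to 4.57), LCP1 (7.03, the others 5.11 to 5.38) and the outer-row median of genes active in most cells (69.68, the others 61.54 to 62.59), and low for IFITM3 (2.46, the others 3.27 to 3.42). Array 4 was high for COX4I1 (5.06, the others -1.52 to -0.86) and low for LEF1 (2.30, the others 3.906 to 4.196). By scaled signal, array 3 was low for EIF1 (-1.52, the others -0.89 to -0.84) and MRPS15 (-1.19, the others -0.86 to -0.79). By percentile within the array it was the lowest for neither gene. Both probes were dim on all untreated arrays, where the software's substitute for dim spots can set the scaled signal. The 95th percentile of net signal was lowest on array 1, at 293.4 scanner units, with the others at 403.7 to 425.9.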

How the results depend on the processing

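The limits are the pools, the slides and the signal. Each group was 1 RNA pool on 1 slide, so no spread between cows was measured. The untreated arrays carried little signal above background, and a difference against a dim probe depends on the scaling.

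By scaled signal, the 4654 higher genes became 2281 with cyclic loess, 2752 with 1 floor for all arrays and 325 with only probes above background on all 8 arrays. In the authors' deposited averages, which allow no test, 95 genes were higher at a fold of 2 and 1362 were lower. The 1521 lower genes became 422 (array median), 2322 (95th percentile), 973 (median of probes above background on all arrays), 3001 (cyclic loess), 770 (1 floor), 15016 (no filter on dim probes) and 896 (only probes above background on all 8 arrays). By rank, higher genes became 146 with only probes above background on all 8 arrays, and lower genes 4664 with no filter. In both fits, the 3815 higher genes became 2256 (cyclic loess), 2341 (1 floor) and 146 (only probes above background on all 8 arrays). The 1462 lower genes became 421 (array median), 972 (median of probes above background on all arrays), 749 (1 floor), 4401 (no filter) and 896 (only probes above background on all 8 arrays). With ranks within blocks of rows and columns they became 860, and with G and C content adjusted as well 747, both choices made after the data were seen. The cause of these shifts was not tested, except that the filters change which genes and probes enter. With each array left out, higher genes ranged from 4300 to 4823 by signal, 3473 to 4390 by rank and 3278 to 4179 in both fits, and lower genes from 1321 to 1652, 1648 to 2112 and 1272 to 1623.

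With the replicate number as a block, 4694 genes were higher and 1502 lower by signal, and 3860 and 1680 by rank. Same-numbered arrays did not deviate together (correlations of -0.0619, -0.027, 0.0346 and 0.0233), so the numbers did not pair the arrays.

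Where only probes above background on all 8 arrays were used, another probe stood for the gene, and the direction turned for S100A12 (-1.96, rank score -0.82), RPL10 (-0.70, rank score -0.62), EIF1 (-2.69, rank score -0.82) and IL1B (-1.96, rank score -0.57), and by rank for DUSP1 (-0.054). With no filter it turned for RPL14 (3.27, rank score 0.71) and LEF1 (0.90, rank score 0.28). Cyclic loess turned ACTB (-0.83), TLR4 (-0.34) and NKG7 (-1.11), scaling within bands of rows KLF1 (-1.89), CXCR2 (-0.14) and NKG7 (-1.19), quantile normalization HBB (-0.40), and the array median CD14 (0.25). Ranks within bands turned NKG7 (-0.42), ranks within blocks NKG7 (-0.49) and CD79A (-0.15), and ranks within blocks adjusted for G and C content NKG7 (-0.45) and HBB (0.13). The authors' deposited averages had the other sign for PALM (0.50), TPST2 (0.11), COX6B2 (0.57), LCP1 (0.034), NCF1 (0.026), IL10 (0.83), CXCR1 (-0.10), CXCR2 (-0.035), IL1B (-0.33), GRO1 (-0.57), ALOX15 (-0.063), KLF1 (-0.0070), DUSP1 (-0.27), BOLA-DQA5 (-0.16), CHUK (-0.13), NFKBIA (-0.55), TLR10 (-0.28), TLR4 (-0.16), HBB (-0.86), NKG7 (-0.67) and CSF3R (-0.59). The cause of these turns was not tested.

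Beside the losses given with each gene, calls by signal were lost for CXCR2 (0.37) and GRO1 (0.90) with 1 floor, for IL1B (1.09) and CD79A (0.17) with cyclic loess, and for NKG7 with the 95th percentile (0.72) and quantile normalization (0.62). CD14 also lost it with the median of probes above background on all arrays (-0.75), normexp (-0.88) and 1 floor (-0.99). KLF1 lost it with the 95th percentile (0.011), normexp (0.54) and 1 floor (0.00). HBB lost it with the 95th percentile (1.27), cyclic loess (0.030), scaling within bands of rows (0.64) and 1 floor (2.48), and PTPRC with the 95th percentile (3.00), quantile normalization (3.18), cyclic loess (1.17) and 1 floor (3.26). DUSP1 lost it with only probes above background on all arrays (0.55), where B2M lost its call by rank (rank score 0.59). Calls by rank were also lost within bands of rows for CXCR2 (0.53) and KLF1 (0.41), and within blocks for CXCR2 (0.33), IL1B (0.46) and KLF1 (0.18). Within blocks adjusted for G and C content they were lost for CXCR2 (0.41), IL1B (0.54), KLF1 (0.26) and CD79A (0.060). CD14 lost its rank call with G and C content adjusted alone (-0.36), and CD79A with the replicate block (0.28).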
